A study of Homo sapiens with 10 samples.

Results

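Bulk RNA was compared between 2 protocols that differentiate human embryonic stem cells into somatosensory neurons, 1 meant to bias cells toward proprioceptors and 1 toward low-threshold mechanoreceptors. The libraries were chosen by their titles, 3 of the proprioceptor protocol and 3 of the mechanoreceptor protocol, which make up 6 of the 10 libraries of the study. All came from the established human embryonic line RUES2, edited so that AVIL, which encodes advillin of the actin cytoskeleton, carries the red fluorescent protein tdTomato, and all were taken at 60 days in vitro. The other 4 libraries, made from the same reporter line at the same day with a nociceptor protocol, entered the statistical fit so that all protocols share 1 estimate of the spread. The labels gave no factors or doses of the protocols, and no word on a sort by the reporter. They called the libraries biological replicates without saying whether these were separate differentiations, so a p-value here reads the spread over these libraries, part of which may be technical, and all share 1 edited line.

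Proprioceptors are the sensory neurons that report muscle stretch and tension. Their development depends on the neurotrophin-3 receptor TrkC (NTRK3) and the transcription factor RUNX3, and in mice they express ETV1, parvalbumin (PVALB) and osteopontin (SPP1). Low-threshold mechanoreceptors report touch and vibration. In mice, their subtypes are marked by the tyrosine kinase receptors RET and TrkB (NTRK2) and by the transcription factors MAF, MAFA and SHOX2, and they sense force through the channel PIEZO2, which proprioceptors use too. Proprioceptors and the mechanoreceptors of vibration and texture have myelinated axons, while some touch neurons have none. Both classes share the sensory factors POU4F1 and ISL1 with nociceptors.

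Levels are given as TPM, which divides reads by transcript length and sets every library to an equal total. Wherever 3 values follow each other they belong to replicates 1, 2 and 3 of a protocol. Fold changes are edgeR quasi-likelihood estimates on counts, on the log2 scale, as proprioceptor minus mechanoreceptor protocol with their standard error. A gene is said not to overlap when its 3 values under one protocol all lie above or all below its 3 values under the other. In bulk RNA, fewer cells of a type and less RNA per cell cannot be told apart.

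Named genes held between 27891186 and 37920073 counts in the 6 libraries, and 12066 to 14160 genes reached a TPM of 1. Each protocol had 1 library rich in mesenchyme and glia. COL1A1, the collagen of fibroblasts, was at 1.77, 536 and 7.81 TPM under the proprioceptor protocol, against 3.26, 2.88 and 366 TPM under the mechanoreceptor protocol. S100B, a calcium-binding protein of Schwann cells, was at 85.7, 1214 and 34.6 TPM, against 10.8, 3.12 and 959 TPM. Proprioceptor replicate 2 and mechanoreceptor replicate 3 therefore stood apart from the other 4 libraries, and the first principal component of log2 CPM (counts relative to depth) took up 53.8% of the variance and separated these 2 from the rest. The second component, with 22.5%, separated proprioceptor replicate 1 from proprioceptor replicate 3. The 4 libraries with a COL1A1 TPM under 100 were therefore also compared on their own, proprioceptor replicates 1 and 3 and mechanoreceptor replicates 1 and 2, called the low-COL1A1 libraries.

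Markers of sensory neurons were present in every library. Summed over 5 somatosensory markers the level was 1132, 1042 and 1538 TPM under the proprioceptor protocol, against 1059, 1272 and 910.8 TPM under the mechanoreceptor protocol. PRPH held most of this sum, at 911, 794 and 1055 TPM, against 545, 902 and 724 TPM. POU4F1 held little of it, at 3.68, 3.67 and 18.01 TPM, against 15.4, 10.4 and 4.64 TPM. Summed markers of 6 glial genes were at 103, 2035 and 55.9 TPM, against 23.3, 6.04 and 1662 TPM. Summed markers of 7 mesenchymal genes were at 13.1, 1261 and 31.7 TPM, against 15.6, 9.11 and 1067 TPM. Outside the mesenchyme-rich libraries the glial sum was thus higher in both proprioceptor libraries than in both mechanoreceptor libraries. Summed markers of 4 autonomic neuron genes were at 42.2, 84.7 and 0.887 TPM, against 23.3, 93.3 and 161 TPM. Proprioceptor replicate 3 was nearly free of them, while the other 5 libraries were not. MYOD1, MYOG and DES of skeletal muscle and PECAM1, CDH5 and VWF of endothelium stayed under 1 TPM in all 6 libraries. So did SOX1 and PAX6 of central neural progenitors. Some other listed genes of these cells did not. The progenitor marker SOX2 was at 3.44 TPM in proprioceptor replicate 2 and 3.23 TPM in mechanoreceptor replicate 3. Of the endothelial list, CLDN5 reached 17.0 TPM in proprioceptor replicate 1 and FLT1 15.8 TPM in proprioceptor replicate 2. Of the muscle list, TNNT1 reached 12.8 TPM in proprioceptor replicate 1.

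**Figure D1:**
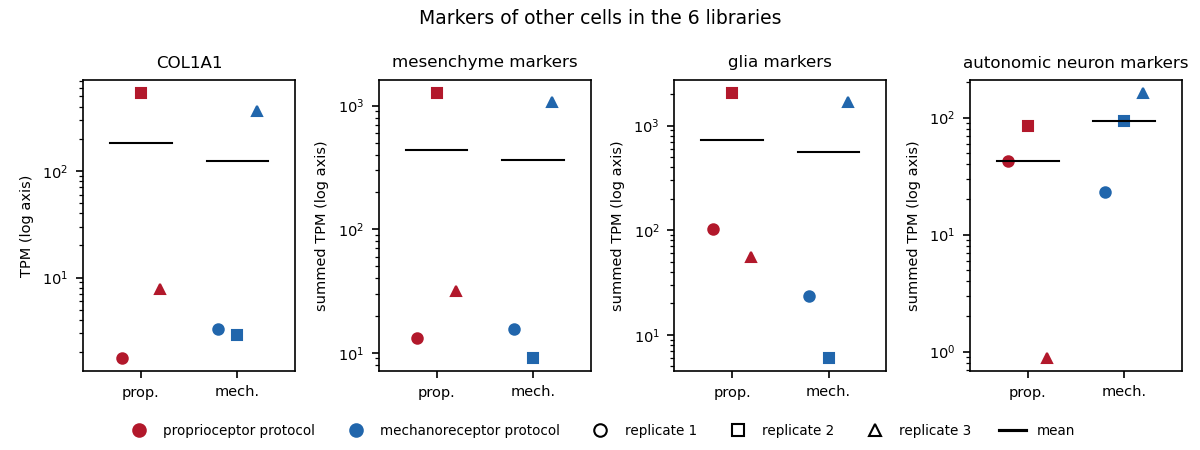
COL1A1 and the summed markers of mesenchyme, glia and autonomic neurons, in TPM on a log axis, with the proprioceptor libraries on the left and the mechanoreceptor libraries on the right of each panel; point shapes give the replicate and bars the arithmetic mean. Proprioceptor replicate 2 and mechanoreceptor replicate 3 lie far above the other libraries in the first 3 panels, and proprioceptor replicate 3 lies lowest, at 0.887 TPM, in the last.

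No gene passed the adjusted threshold between the protocols. Of 16130 genes tested with edgeR, 0 (percent called 0.0) had a Benjamini-Hochberg adjusted p under 0.05, and the smallest adjusted p was 0.999998. At an unadjusted p under 0.05 there were 120 genes higher (0.744%) and 121 lower (0.75%) under the proprioceptor protocol. DESeq2 on the same counts called 0 genes, with 296 at an unadjusted p under 0.05. The spread was wide, with a common biological coefficient of variation of 0.5503. An exact permutation test of a single gene over 3 against 3 libraries cannot go below 0.1, so none was used. Values of members are therefore given as descriptions, beside these background shares.

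The number of genes without overlap depended on the scale. In TPM, 140 genes (0.868%) lay higher in all 3 proprioceptor libraries and 810 (5.02%) lay lower. In CPM scaled by the trimmed mean of M values (TMM), there were 372 (2.31%) higher and 544 (3.37%) lower. On both scales at once, 88 genes (0.546%) lay higher and 317 (1.97%) lower. The median log2 fold change of all genes was 0.04 in the edgeR fit and -0.18 on the log2(TPM + 1) scale in limma, so a small lower value in TPM is no difference relative to the other genes.

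The genes at the top of each side open the account. By the smallest p among genes without overlap in TPM and with a mean of at least 5 TPM in the higher group, TMSB15A led the genes that lay higher and NCEH1 those that lay lower. The 300 bases around their RefSeq start sites (GRCh38.p14, 250 before and 50 after the start, 5′ to 3′ on the minus strand for both) are shown because these genes had the smallest p on each side. Capitals mark the sequence CCGGAA, the core to which ETS-family factors such as ETV4 and ETV5 bind.
TMSB15A, chrX:102516690-102516989: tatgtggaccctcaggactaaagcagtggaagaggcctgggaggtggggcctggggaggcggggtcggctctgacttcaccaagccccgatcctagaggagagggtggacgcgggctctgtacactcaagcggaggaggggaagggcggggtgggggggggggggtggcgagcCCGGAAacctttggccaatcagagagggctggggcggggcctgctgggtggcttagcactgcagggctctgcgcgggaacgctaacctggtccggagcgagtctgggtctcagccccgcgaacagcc
NCEH1, chr3:172711018-172711317: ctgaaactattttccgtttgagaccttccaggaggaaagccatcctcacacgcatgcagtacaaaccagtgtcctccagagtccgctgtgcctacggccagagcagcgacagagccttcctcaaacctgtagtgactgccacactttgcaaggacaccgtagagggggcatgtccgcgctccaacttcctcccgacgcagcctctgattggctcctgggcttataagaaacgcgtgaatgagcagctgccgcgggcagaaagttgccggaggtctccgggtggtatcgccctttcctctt
The TMSB15A window held CCGGAA 1 time and the NCEH1 window 0 times, searched on both strands. The motif is common, since 17.6% of 27305 promoter windows of the same length held it, and 26.7% of the 12451 windows of tested genes. Neither window held TATAAA, found in 12.0% of all windows and 6.53% of those of tested genes, or TGACGTCA, found in 1.98% and 3.01%.

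TMSB15A encodes a thymosin beta, a small protein that binds actin monomers. It lies on chromosome X at 102513682 to 102516739 and was at 82.1, 62.6 and 159.7 TPM in the proprioceptor libraries, against 34.5, 28.4 and 42.8 TPM in the mechanoreceptor libraries. All 3 proprioceptor libraries lay above all 3 mechanoreceptor libraries, with a log2 fold change of 1.88 ± 0.40. In the low-COL1A1 libraries the log2 fold change was 2.41 ± 0.50. The 4 nociceptor libraries, at 72.2, 92.7, 89.5 and 86.2 TPM, lay within the range of the proprioceptor libraries. Its near-identical neighbour TMSB15B was at 206, 88.9 and 220.1 TPM in the proprioceptor libraries, against 122, 127 and 103 TPM in the mechanoreceptor libraries, which overlapped, and pseudoalignment may divide reads between these 2 genes wrongly.

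NCEH1, a neutral cholesterol ester hydrolase on chromosome 3 at 172630249 to 172711067, was at 3.17, 9.38 and 5.396 TPM in the proprioceptor libraries, against 18.2, 14.8 and 14.2 TPM in the mechanoreceptor libraries. The groups did not overlap and the log2 fold change was -1.18 ± 0.30. In the low-COL1A1 libraries it was -1.49 ± 0.49.

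Several other genes higher under the proprioceptor protocol were low under the mechanoreceptor protocol. KLHL14, a Kelch-like protein gene on chromosome 18 at 32672673 to 32773023, was at 8.25, 19.98 and 30.1 TPM in the proprioceptor libraries, against 1.38, 1.202 and 1.76 TPM in the mechanoreceptor libraries. The lowest proprioceptor library, at 8.25 TPM, lay well above the highest mechanoreceptor library, at 1.76 TPM, and the log2 fold change was 3.91 ± 1.24. TTC29, which encodes a protein of ciliary and flagellar axonemes, was at 10.7, 13.9 and 27.9 TPM in the proprioceptor libraries, against 2.33, 1.53 and 5.93 TPM in the mechanoreceptor libraries, a log2 fold change of 2.72 ± 0.73 without overlap. Replicate 3 was the highest of the proprioceptor libraries for KLHL14 and TTC29.

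NPNT (nephronectin, a matrix ligand of integrins) was at 2.42, 2.299 and 31.97 TPM in the proprioceptor libraries, against 1.46, 1.32 and 1.998 TPM in the mechanoreceptor libraries. It did not overlap in TPM, but the margin was set by 1 library, proprioceptor replicate 3, and on the TMM scale the groups overlapped. C6orf141 had the same shape, at 3.26, 2.73 and 43.7 TPM in the proprioceptor libraries, against 2.65, 1.35 and 1.18 TPM in the mechanoreceptor libraries. The neuronal RNA-binding protein ELAVL4 (HuD) was at 51.8, 64.1 and 210.3 TPM in the proprioceptor libraries, against 45.7, 40.8 and 15.9 TPM in the mechanoreceptor libraries, again highest in proprioceptor replicate 3. RAB31, an endosomal GTPase, had a narrower spread, at 219.8, 208 and 354 TPM in the proprioceptor libraries, against 109.5, 128 and 153 TPM in the mechanoreceptor libraries.

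Other genes higher by the same rule were RARRES1, CFAP90, GSTM2, GINS3, EPCAM, S100A10 and MSANTD1, with log2 fold changes between 0.99 and 1.74. EPCAM, an adhesion molecule of epithelia, was at 32.3, 30.7 and 53.02 TPM in the proprioceptor libraries, against 22.3, 27.7 and 22.3 TPM in the mechanoreceptor libraries, close to touching. S100A10, the annexin A2 partner p11, was at 3011, 1937 and 3246 TPM in the proprioceptor libraries, against 1545, 1911 and 1628 TPM in the mechanoreceptor libraries. EPCAM and S100A10 overlapped on the TMM scale. GSTM2, a glutathione transferase, belongs to a cluster of close copies, so its value carries an estimation error.

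Among the genes lower under the proprioceptor protocol, IAPP, which encodes the peptide hormone amylin, was at 1.88, 3.12 and 2.26 TPM in the proprioceptor libraries, against 19.8, 22.3 and 9.57 TPM in the mechanoreceptor libraries. The highest proprioceptor library, at 3.12 TPM, lay well below the lowest mechanoreceptor library, at 9.57 TPM, with a log2 fold change of -2.66 ± 0.75. VAV3, a guanine nucleotide exchange factor, was at 0.637, 2.51 and 0.938 TPM in the proprioceptor libraries, against 7.58, 5.06 and 2.601 TPM in the mechanoreceptor libraries, where proprioceptor replicate 2 nearly reached mechanoreceptor replicate 3. GPAT3, an enzyme of triglyceride synthesis, was at 2.19, 2.397 and 2.34 TPM in the proprioceptor libraries, against 18.7, 9.51 and 6.56 TPM in the mechanoreceptor libraries, with little spread among the proprioceptor libraries. UST, a sulfotransferase that modifies chondroitin and dermatan sulfate, was at 15.3, 28.4 and 18.2 TPM in the proprioceptor libraries, against 64.8, 61.2 and 56.4 TPM in the mechanoreceptor libraries.

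PCDHAC2, a clustered protocadherin of neuronal adhesion, was at 8.92, 33.1 and 26.5 TPM in the proprioceptor libraries, against 92.6, 56.5 and 47.8 TPM in the mechanoreceptor libraries. It shares its constant exons with the other alpha protocadherins, so its estimate is uncertain. RASL10B, FRMPD4, SLFN5 and SH3TC1 completed the lower side together with RIMBP2, ASIC2, SPRY4, ETV5 and UNC5B, described below. The log2 fold changes of the 15 genes ran between -2.66 and -1.10, and for the 15 higher genes between 0.99 and 3.91.

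**Figure D2:**
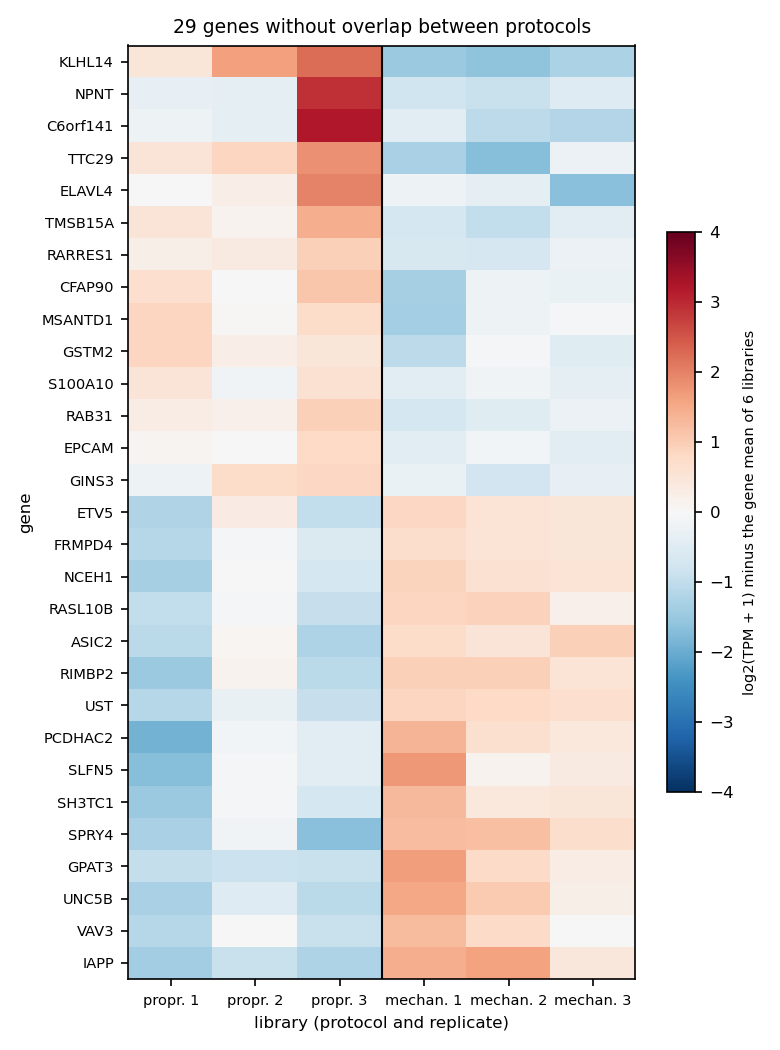
Levels of 29 of the 30 genes with the smallest p among those without overlap in TPM and with a mean of at least 5 TPM in the higher group, ordered by log2 fold change; colour gives log2(TPM + 1) minus the gene's mean over the 6 libraries, with the 3 proprioceptor libraries left of the line and the 3 mechanoreceptor libraries right of it. Proprioceptor replicate 3 is darkest for several of the upper genes, such as KLHL14, and proprioceptor replicate 2 is the palest proprioceptor library for many of the lower genes, such as ETV5.

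Subtype markers did not sort the cultures by the name of the protocol. Of 21 tested proprioceptor markers, 12 had a fold change above 0, and the median was 0.15, beside 53.7% of all genes above 0 and a median of 0.04. On the log2(TPM + 1) scale the median was -0.16, beside -0.18 for all genes. Of 23 tested mechanoreceptor markers, 18 had a fold change above 0, with a median of 0.29. None of these tests passed the adjusted threshold.

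RUNX3, which specifies proprioceptors in mice, was at 1.17, 7.72 and 0.126 TPM in the proprioceptor libraries, against 2.61, 5.71 and 5.72 TPM in the mechanoreceptor libraries. Proprioceptor replicate 2, rich in mesenchyme, had most, and proprioceptor replicate 3 almost none. NTRK3, the neurotrophin-3 receptor, was at 4.17, 8.16 and 0.988 TPM in the proprioceptor libraries, against 3.09, 5.02 and 8.54 TPM in the mechanoreceptor libraries, with a log2 fold change of 0.15 ± 0.66. The ETS factor ETV1 was the most abundant of these genes, at 53.6, 103 and 62.9 TPM in the proprioceptor libraries, against 133, 111 and 72.7 TPM in the mechanoreceptor libraries.

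PVALB, the calcium buffer of proprioceptors, was at 14.6, 11.02 and 1.76 TPM in the proprioceptor libraries, against 9.58, 9.301 and 6.596 TPM in the mechanoreceptor libraries. Proprioceptor replicates 1 and 2 lay highest and replicate 3 lowest of the 6. SPP1, the secreted protein osteopontin, was at 6.47, 25.01 and 3.16 TPM in the proprioceptor libraries, against 3.305, 6.78 and 17.3 TPM in the mechanoreceptor libraries, highest in the mesenchyme-rich library of each protocol. For RUNX3, NTRK3, ETV1, PVALB and SPP1 the groups overlapped, and each fold change lay within 1 standard error of 0.

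ETV4, a second ETS factor on the proprioceptor list, differed from these by not overlapping, and lay lower under the proprioceptor protocol. Its values are given with the ERK feedback genes below. SEMA5A, a guidance molecule on the same list, lay the other way in the counts, with a log2 fold change of 2.66 ± 0.80, but was at 0.806, 2.15 and 9.25 TPM in the proprioceptor libraries, against 0.289, 0.5 and 2.06 TPM in the mechanoreceptor libraries. In TPM, proprioceptor replicate 1 lay below mechanoreceptor replicate 3.

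Among the mechanoreceptor markers, RET, the receptor of glial cell line-derived ligands, was at 23.8, 70.4 and 67.4 TPM in the proprioceptor libraries, against 83.9, 87.1 and 70.7 TPM in the mechanoreceptor libraries. The groups did not overlap, but proprioceptor replicate 2 lay within 1 TPM of mechanoreceptor replicate 3, and the log2 fold change was -0.37 ± 0.47. The BDNF receptor gene NTRK2 was at 7.24, 16.6 and 73.6 TPM in the proprioceptor libraries, against 16.2, 12.9 and 14.8 TPM in the mechanoreceptor libraries, with 1 high library, proprioceptor replicate 3. SHOX2 was at 28, 30.9 and 88.99 TPM in the proprioceptor libraries, against 70.9, 53.5 and 12.9 TPM in the mechanoreceptor libraries, and the large MAF factor MAFA at 3.51, 13.4 and 8.53 TPM in the proprioceptor libraries, against 10.2, 18.4 and 7.39 TPM in the mechanoreceptor libraries. Both overlapped.

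MAF was at 2.81, 5.29 and 7.35 TPM in the proprioceptor libraries, against 2.98, 1.51 and 2.27 TPM in the mechanoreceptor libraries, which overlapped narrowly in TPM and not on the TMM scale, with a log2 fold change of 0.89 ± 0.42. The mechanotransduction channel PIEZO2 was at 82.8, 79.4 and 172 TPM in the proprioceptor libraries, against 94.4, 103 and 45.3 TPM in the mechanoreceptor libraries. POU4F2, a BRN3-family factor, was at 0.716, 3.16 and 6.75 TPM in the proprioceptor libraries, against 0.164, 0.123 and 0.729 TPM in the mechanoreceptor libraries, low in all 6 libraries, with a log2 fold change of 3.46 ± 0.91. SLC17A8, the vesicular glutamate transporter VGLUT3 of some touch neurons in mice, was at 0.755, 2.84 and 5.004 TPM in the proprioceptor libraries, against 0.298, 0.533 and 0.342 TPM in the mechanoreceptor libraries, without overlap. Both were among the 3 of 23 tested members of the mechanoreceptor list at an unadjusted p under 0.05. All 3 had a fold change above 0, beside 0.744% of all genes higher at that p, although POU4F2 overlapped in TPM.

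Shared sensory factors overlapped. POU4F1 was at 3.68, 3.67 and 18.01 TPM in the proprioceptor libraries, against 15.4, 10.4 and 4.64 TPM in the mechanoreceptor libraries, ISL1 at 204, 209.7 and 417 TPM in the proprioceptor libraries, against 399.9, 296 and 157 TPM in the mechanoreceptor libraries, and the intermediate filament PRPH at 911, 794 and 1055 TPM in the proprioceptor libraries, against 545, 902 and 724 TPM in the mechanoreceptor libraries. AVIL, the gene that holds the reporter, was at 1.302, 3.51 and 2.96 TPM in the proprioceptor libraries, against 2.21, 3.55 and 1.402 TPM in the mechanoreceptor libraries. Of 16 tested genes of sensory neuron identity, 7 had a fold change above 0, with a median of -0.05. NHLH1, a helix-loop-helix factor of young neurons, lay lower without overlap, at 0.169, 0.422 and 0.669 TPM in the proprioceptor libraries, against 4.34, 3.31 and 1.68 TPM in the mechanoreceptor libraries, a log2 fold change of -2.70 ± 1.01. DRGX, a homeobox factor of developing sensory neurons, was at 11.96, 30.7 and 45.3 TPM in the proprioceptor libraries, against 97.04, 60.2 and 23.4 TPM in the mechanoreceptor libraries and overlapped.

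**Figure D3:**
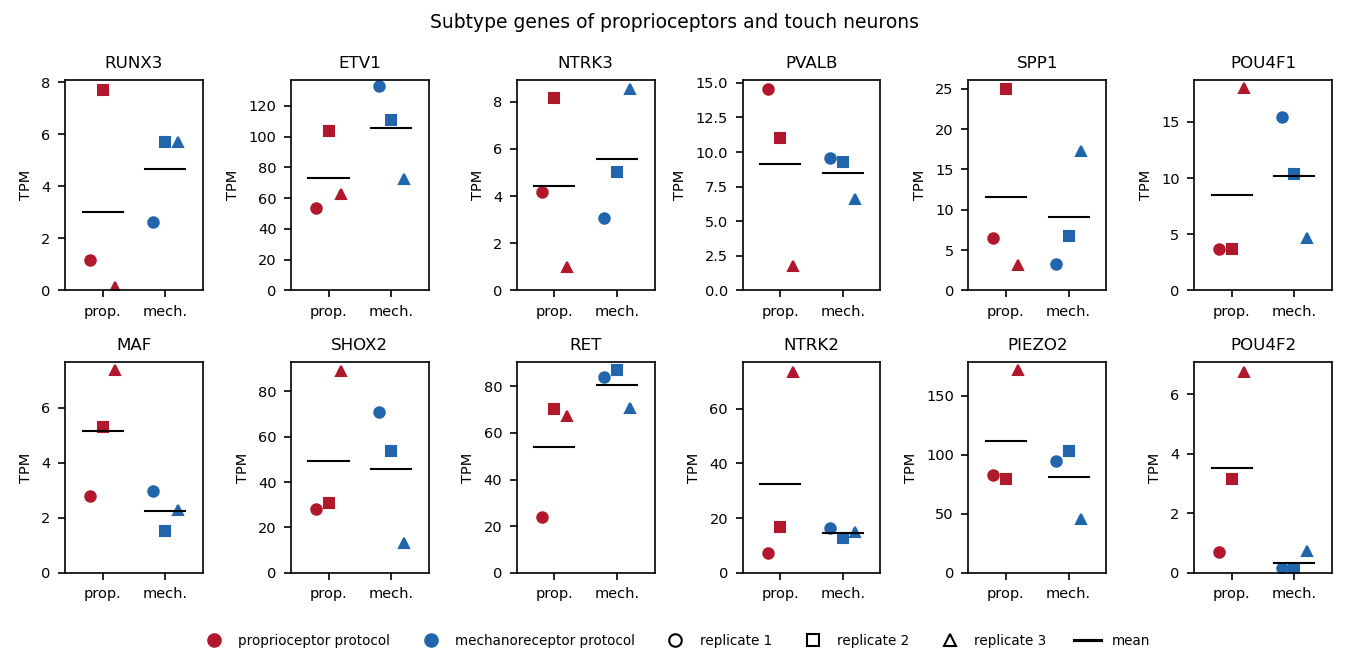
TPM of 12 subtype genes in each library, proprioceptor protocol left and mechanoreceptor protocol right of each panel, point shapes giving the replicate and bars the mean. RET is the panel in which the groups do not overlap, with 70.4 TPM in the highest proprioceptor library and 70.7 TPM in the lowest mechanoreceptor library.

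ETV4, ETV5 and SPRY4, which report signalling through the ERK mitogen-activated protein kinase, lay lower under the proprioceptor protocol without overlap in TPM or on the TMM scale, while the other genes of the same list overlapped on at least 1 of them. These genes were picked from the list with their values known, so they are no independent group. ETV4 and ETV5 are ETS factors induced by fibroblast growth factors, and also by neurotrophic factors in sensory neurons of mice, while the Sprouty and SPRED proteins are induced by ERK signalling and restrain it. Of the 22 tested genes on the activity and MAPK list, 4 had an unadjusted p under 0.05, all lower, beside 0.75% of all genes lower at that p. Of the list, 10 genes had a fold change above 0 and 12 below. The median was -0.08, beside 0.04 for all genes, and it turned to 0.78 without mechanoreceptor replicate 3, 0.04 without proprioceptor replicate 1, 0.08 without proprioceptor replicate 3 and 0.03 with a replicate block. DUSP6, SPRY1 and ETV1 overlapped, and the immediate early genes on it, such as FOS and EGR1, overlapped.

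ETV4 lies on chromosome 17 at 43527846 to 43546340 and was at 22.5, 19.9 and 10.1 TPM in the proprioceptor libraries, against 93.8, 83.3 and 53.4 TPM in the mechanoreceptor libraries. The highest proprioceptor library, at 22.5 TPM, lay well below the lowest mechanoreceptor library, at 53.4 TPM, and the log2 fold change was -1.65 ± 0.60. ETV5, on chromosome 3 at 186046314 to 186109089, was at 11.6, 35.7 and 13.5 TPM in the proprioceptor libraries, against 50.9, 41.01 and 39.9 TPM in the mechanoreceptor libraries, with a log2 fold change of -1.10 ± 0.33. Here proprioceptor replicate 2 came near the mechanoreceptor libraries.

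SPRY4, on chromosome 5 at 142310430 to 142325021, was at 3.56, 9.21 and 2.52 TPM in the proprioceptor libraries, against 25.7, 24.9 and 17.5 TPM in the mechanoreceptor libraries, with a log2 fold change of -1.92 ± 0.55. SPRED1 was at 5.04, 15.6 and 5.704 TPM in the proprioceptor libraries, against 34.5, 26.4 and 12.1 TPM in the mechanoreceptor libraries, with a log2 fold change of -1.36 ± 0.49, and overlapped in TPM through proprioceptor replicate 2 and mechanoreceptor replicate 3. Between the low-COL1A1 libraries the log2 fold changes were -1.69 ± 0.66 for ETV4, -1.56 ± 0.49 for ETV5, -2.37 ± 0.60 for SPRY4 and -1.73 ± 0.51 for SPRED1. DESeq2 on these 4 libraries called SPRY4 (adjusted p = 0.0227) and not ETV4 (adjusted p = 0.526), ETV5 (adjusted p = 0.203) or SPRED1 (adjusted p = 0.129). In edgeR on the same libraries the adjusted p of SPRY4 was 0.528.

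Other genes of the list overlapped on 1 scale or both. DUSP6, the phosphatase that inactivates ERK, was at 14.6, 69.02 and 4.197 TPM in the proprioceptor libraries, against 77.5, 49.3 and 118 TPM in the mechanoreceptor libraries, where proprioceptor replicate 2 overlapped the mechanoreceptor libraries. SPRY2 was at 50.6, 75.9 and 58.7 TPM in the proprioceptor libraries, against 153, 117 and 84.6 TPM in the mechanoreceptor libraries, so it did not overlap in TPM but did on the TMM scale. SPRY1, at 6.59, 13.9 and 5.61 TPM in the proprioceptor libraries, against 9.54, 6.45 and 7.08 TPM in the mechanoreceptor libraries, overlapped, as did ETV1, given above. The immediate early gene FOS was at 15.9, 95.5 and 65.7 TPM in the proprioceptor libraries, against 6.5, 27.8 and 89.4 TPM in the mechanoreceptor libraries and EGR1 at 0.198, 5.48 and 10.8 TPM in the proprioceptor libraries, against 0.247, 0.394 and 4.96 TPM in the mechanoreceptor libraries. EGR1 lay higher in the counts of the low-COL1A1 libraries, with a log2 fold change of 4.14 ± 1.20, set by proprioceptor replicate 3.

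For ETV4, ETV5, SPRY4 and SPRED1 the mean of the nociceptor libraries lay between those of the other protocols, while for DUSP6, SPRY1, FOS and EGR1 it lay above both. Over nociceptor replicates 1 to 4, ETV4 was at 30.2, 26.8, 35.7 and 96.3 TPM, ETV5 at 31.4, 27.1, 21.1 and 36.5 TPM and SPRY4 at 5.79, 10.97, 8.65 and 20.98 TPM. The fourth nociceptor library, the one with a COL1A1 TPM under 100, lay above the mechanoreceptor libraries for ETV4 and within their range for SPRY4. The other 3 nociceptor libraries lay between the ranges of the 2 protocols for ETV4.

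The transcript tables located part of the SPRY4 difference in 1 isoform. SPRY4-201 (ENST00000344120.4, chromosome 5, 142310427 to 142325001 on the minus strand, 3 exons) was listed at 0 in all 3 proprioceptor libraries, against 3.27, 4.74 and 1.82 TPM in the mechanoreceptor libraries. Behind these stood 0 estimated counts in each proprioceptor library, against 384, 619 and 196. Against a floor of 3 counts per library the mean was at least 116-fold lower under the proprioceptor protocol, which covers counting error only, since pseudoalignment may have assigned reads of this isoform to another. It made up 0% of the gene's TPM in the proprioceptor libraries, against 12.7%, 19.0% and 10.4% in the mechanoreceptor libraries, and the nociceptor libraries held it at 1.72, 1.68, 0.938 and 5.47 TPM. The edgeR adjusted p over 76818 transcripts was 0.569, while DESeq2 gave an adjusted p of 1.04e-10. SPRY4-202, a 2-exon isoform with its 5′ end at 142325040, was at 3.56, 8.18 and 2.18 TPM, against 19.7, 18.8 and 14.5 TPM. SPRY4-201 was singled out after its values were seen.

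**Figure D4:**
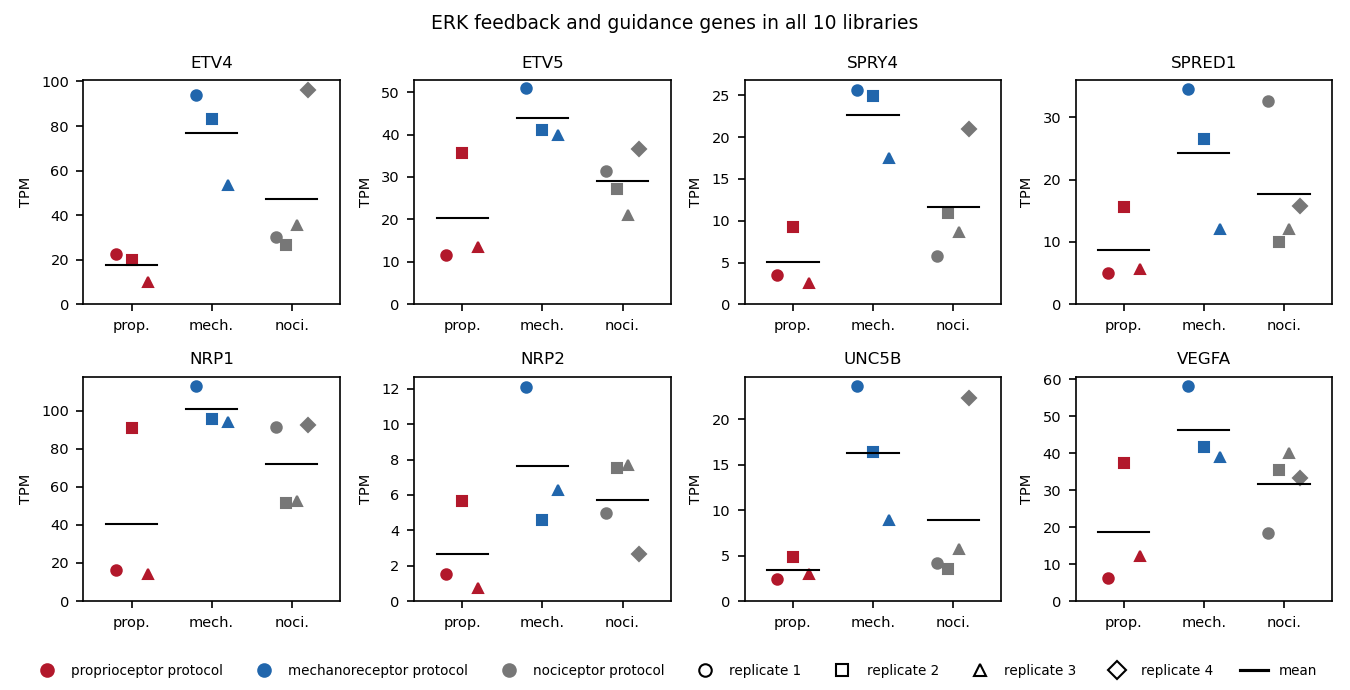
TPM of 4 genes of the ERK feedback group (upper row) and 4 genes of guidance and VEGF signalling (lower row) in proprioceptor, mechanoreceptor and nociceptor libraries, point shapes giving the replicate and bars the mean. For ETV4, ETV5, SPRY4, NRP1, UNC5B and VEGFA the 3 proprioceptor libraries lie below the 3 mechanoreceptor libraries, and for SPRED1 and NRP2 they overlap.

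NRP1, UNC5B, PLXNA4 and EPHB2, receptors of axon guidance, lay lower under the proprioceptor protocol without overlap. Guidance receptors of growth cones read semaphorins, netrins, slits and ephrins, and sensory axons use neuropilins with plexins as the semaphorin 3 receptor. Of 41 tested genes of the guidance list, 30 had a fold change below 0, beside 46.3% of all genes, with a median of -0.23, beside 0.04 for all genes. The direction of the median rested on single libraries, since it turned to 0.35 without mechanoreceptor replicate 3 and to 0.13 without proprioceptor replicate 1. PLXNA4, NRP1, UNC5B and EPHB2 lay lower without overlap on both scales and 0 genes lay higher on both, beside 1.97% of all genes lower and 0.546% higher. None passed the adjusted threshold.

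NRP1 (neuropilin 1), on chromosome 10 at 33177493 to 33334667, was at 16.3, 90.98 and 14.1 TPM in the proprioceptor libraries, against 113, 95.6 and 94.2 TPM in the mechanoreceptor libraries. Proprioceptor replicates 1 and 3 lay far below the mechanoreceptor libraries, while replicate 2 lay just under them. The log2 fold change was -1.25 ± 0.55 in the 10-library fit and -2.24 ± 0.52 between the low-COL1A1 libraries. NRP2, its relative for other class 3 semaphorins, was at 1.51, 5.68 and 0.732 TPM in the proprioceptor libraries, against 12.1, 4.58 and 6.27 TPM in the mechanoreceptor libraries and overlapped in TPM through proprioceptor replicate 2. PLXNA4, the plexin that pairs with neuropilins in sensory neurons, was at 3.58, 8.98 and 4.696 TPM in the proprioceptor libraries, against 13.7, 12.4 and 9.73 TPM in the mechanoreceptor libraries.

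UNC5B, a netrin receptor that mediates repulsion, on chromosome 10 at 71212570 to 71302864, was at 2.42, 4.89 and 2.98 TPM in the proprioceptor libraries, against 23.6, 16.4 and 8.89 TPM in the mechanoreceptor libraries, a log2 fold change of -1.99 ± 0.67. EPHB2, an ephrin-B receptor, was at 3.95, 15.7 and 9.06 TPM in the proprioceptor libraries, against 23.9, 16.8 and 20.6 TPM in the mechanoreceptor libraries. VEGFA, the vascular growth factor that also binds NRP1, was at 6.205, 37.4 and 12.2 TPM in the proprioceptor libraries, against 58.2, 41.7 and 38.9 TPM in the mechanoreceptor libraries, without overlap and with a log2 fold change of -1.32 ± 0.51. VEGFA stood on the hypoxia list, of which 9 of 15 tested genes had a fold change above 0, with a median of 0.12. For NRP1, UNC5B and VEGFA, proprioceptor replicate 2, the library rich in mesenchyme and glia, was the highest of its protocol, and the part of other cells in these values was not tested.

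The ligands overlapped. SEMA3A was at 6.202, 39.1 and 7.31 TPM in the proprioceptor libraries, against 7.83, 14.04 and 39.7 TPM in the mechanoreceptor libraries and SEMA3C at 5.25, 84.8 and 7.87 TPM in the proprioceptor libraries, against 11.2, 29.6 and 67.7 TPM in the mechanoreceptor libraries, with the mesenchyme-rich library of each protocol the highest. SEMA3D was at 3.83, 14.1 and 0.308 TPM in the proprioceptor libraries, against 11.6, 22.7 and 26.6 TPM in the mechanoreceptor libraries, where proprioceptor replicate 3 had nearly none.

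The transcript tables also held an isoform of NRP1 with a larger fold change than the gene. NRP1-203 (ENST00000374821.9) was at 0.709, 1.60 and 0.303 TPM in the proprioceptor libraries, against 14.3, 8.67 and 7.57 TPM in the mechanoreceptor libraries. It made up 4.36%, 1.76% and 2.15% of the gene's TPM, against 12.7%, 9.08% and 8.03%, so the share did not overlap either, also in the mesenchyme-rich libraries. The log2 fold change was -3.35 ± 0.64 (edgeR adjusted p = 1). GRIK1-206 (ENST00000399913.5), an isoform of a kainate receptor subunit, was at 0.0687, 0.00833 and 0 TPM, against 6.23, 2.15 and 9.36 TPM, although the gene as a whole overlapped, at 3.52, 42.4 and 1.44 TPM in the proprioceptor libraries, against 33.3, 25.4 and 57.3 TPM in the mechanoreceptor libraries. CHST15-201, of a chondroitin sulfate sulfotransferase, was at 1.17, 4.66 and 1.82 TPM, against 8.94, 8.02 and 10.6 TPM.

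On the higher side, SPATS2-217 (ENST00000550997.5) was at 5.69, 6.84 and 4.86 TPM in the proprioceptor libraries and listed at 0 in all 3 mechanoreceptor libraries, while the gene overlapped, at 46.7, 40.6 and 87.3 TPM, against 70.0, 46.7 and 40.9 TPM. Across 76818 transcripts edgeR called 0 (percent called 0.0) at an adjusted p under 0.05 and 1850 (2.41%) had an unadjusted p under 0.05. DESeq2 called 339, of which 124 had more than 0.1 TPM in 1 of the 6 libraries alone.

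HOXB7 lay higher under the proprioceptor protocol without overlap, and the other HOX genes overlapped on 1 scale or both. HOX genes are expressed in nested domains along the body axis. Of 13 tested genes of paralog groups 6 to 13, 8 had a fold change above 0, beside 53.7% of all genes, with a median of 0.77, and the median of the 12 tested of groups 1 to 5 was 0.28. None passed the adjusted threshold. Between the low-COL1A1 libraries the medians were 1.00 (8 of 11 tested genes above 0, beside 53.0% of all genes) and 0.01.

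HOXB7, on chromosome 17 at 48607232 to 48611017, was the most abundant of these in 4 of the 6 libraries, at 44.4, 52.96 and 46.7 TPM in the proprioceptor libraries, against 26.1, 30.5 and 38.5 TPM in the mechanoreceptor libraries. The groups did not overlap, with a log2 fold change of 0.79 ± 0.36. HOXC9 was low, at 0.576, 2.51 and 1.504 TPM in the proprioceptor libraries, against 0.0629, 0.0915 and 0.784 TPM in the mechanoreceptor libraries, with a log2 fold change of 2.54 ± 0.81, and overlapped in TPM through proprioceptor replicate 1 and mechanoreceptor replicate 3. HOXB9 was at 14.9, 14.5 and 65.2 TPM in the proprioceptor libraries, against 27.4, 20.2 and 8.85 TPM in the mechanoreceptor libraries, set by proprioceptor replicate 3. HOXB8 was at 1.31, 1.81 and 3.44 TPM in the proprioceptor libraries, against 1.28, 1.04 and 0.703 TPM in the mechanoreceptor libraries, and HOXB6 at 12.9, 15.5 and 22.7 TPM in the proprioceptor libraries, against 9.602, 14.7 and 10.3 TPM in the mechanoreceptor libraries.

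Genes of paralog groups 10 to 13 were at or near 0. HOXD10, HOXD11, HOXD12 and HOXD13 were listed at 0 in all 6 libraries, as were HOXA11, HOXA13 and HOXC11. The HOX clusters carry antisense genes, and with a cDNA kit that keeps no strand, a HOX gene and an antisense partner over it cannot be told apart.

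Genes of nociceptors and peptides overlapped for the most part. Of 18 tested nociceptor markers, 9 lay on each side, with a median of -0.06. CALCA, which encodes the peptide CGRP, lay lower without overlap, at 0.09004, 0.138 and 0.229 TPM in the proprioceptor libraries, against 1.95, 2.04 and 0.779 TPM in the mechanoreceptor libraries, a log2 fold change of -3.27 ± 0.82, with low values in all 6 libraries. IAPP, which belongs to the same peptide family, lay lower as well. SST, the gene of somatostatin, was among the most abundant transcripts, at 13358, 1389.5 and 1885 TPM in the proprioceptor libraries, against 2313, 5341 and 1507 TPM in the mechanoreceptor libraries, with proprioceptor replicate 1 far above the others. The ATP receptor channel gene P2RX3 was at 67.1, 188 and 486 TPM in the proprioceptor libraries, against 468, 402 and 227 TPM in the mechanoreceptor libraries. NPPB, a peptide of itch neurons, was at 15.7, 5.64 and 22 TPM in the proprioceptor libraries, against 5.12, 12.3 and 1.53 TPM in the mechanoreceptor libraries, and PENK, the enkephalin precursor, at 0.834, 0.554 and 0.132 TPM in the proprioceptor libraries, against 0.934, 7.18 and 7.203 TPM in the mechanoreceptor libraries.

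CHRNA3, a nicotinic receptor subunit of both autonomic and some sensory neurons, lay lower without overlap, at 29.1, 40.7 and 15.1 TPM in the proprioceptor libraries, against 60.7, 67.5 and 78.2 TPM in the mechanoreceptor libraries. The noradrenaline enzyme DBH was at 7.26, 7.298 and 0.182 TPM in the proprioceptor libraries, against 5.95, 38.9 and 64.9 TPM in the mechanoreceptor libraries and TH at 378, 312 and 12.95 TPM in the proprioceptor libraries, against 70.9, 273 and 534 TPM in the mechanoreceptor libraries, and both overlapped. The summed autonomic markers, given above, also spanned a wide range, and their part in the CHRNA3 values was not tested.

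Among channels, ASIC2, an acid-sensing channel of the degenerin family found in mechanosensory endings, was at 7.02, 16.8 and 6.15 TPM in the proprioceptor libraries, against 27.02, 22.8 and 31.6 TPM in the mechanoreceptor libraries. The groups did not overlap, with a log2 fold change of -1.19 ± 0.41. Of 32 tested sensory transduction channels, 17 had a fold change below 0, with a median of -0.14. TRPM3, a heat-sensitive channel, was low, at 0.196, 0.991 and 1.96 TPM in the proprioceptor libraries, against 0.405, 0.4397 and 0.661 TPM in the mechanoreceptor libraries. Of 13 sodium channel genes, 1 lay higher without overlap on both scales, beside 0.546% of all genes. This was SCN1A, an axonal subunit of large neurons, at 5.26, 6.87 and 6.003 TPM in the proprioceptor libraries, against 4.91, 2.73 and 4.92 TPM in the mechanoreceptor libraries. The groups nearly touched, at 5.26 against 4.92 TPM, and the log2 fold change was 0.73 ± 0.64. Of 32 potassium channel genes, 0 lay apart on both scales, beside 0.546% of all genes higher and 1.97% lower. The neurofilament NEFH was at 19.1, 38.1 and 53.5 TPM in the proprioceptor libraries, against 32.8, 50.9 and 45.3 TPM in the mechanoreceptor libraries, and the median of the neurofilament and large-axon list was 0.07 over 16 genes.

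Genes of the presynaptic terminal lay lower in several members. Of 27 tested genes of vesicles and release, 19 had a fold change below 0, beside 46.3% of all genes. The median was -0.12, beside 0.04 for all genes, and on the log2(TPM + 1) scale -0.48, beside -0.18 for all genes. SV2B, a synaptic vesicle glycoprotein, was at 6.73, 27.8 and 31.97 TPM in the proprioceptor libraries, against 72.2, 55.6 and 36.05 TPM in the mechanoreceptor libraries, a log2 fold change of -1.16 ± 0.51. SYT1, the calcium sensor of release, was at 108, 159.5 and 160.3 TPM in the proprioceptor libraries, against 299, 232 and 262 TPM in the mechanoreceptor libraries. RIMS1, an active-zone scaffold, was at 9.13, 20.4 and 16.2 TPM in the proprioceptor libraries, against 27.2, 22.1 and 25.7 TPM in the mechanoreceptor libraries, and its binding partner RIMBP2 at 3.99, 14.3 and 5.59 TPM in the proprioceptor libraries, against 26.3, 25.9 and 19.2 TPM in the mechanoreceptor libraries, a log2 fold change of -1.30 ± 0.37. For all 4 genes the groups did not overlap on either scale, and proprioceptor replicate 1 was the lowest library. RIMBP2 was not on the list. Of the list, 3 genes lay lower and 1, SLC17A8, higher without overlap on both scales, beside 1.97% and 0.546% of all genes.

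General neuronal genes lay on both sides. Of 16 pan-neuronal genes, 10 had a fold change above 0, beside 53.7% of all genes, with a median of 0.12 in the counts and of -0.14 on the log2(TPM + 1) scale. Without overlap on both scales, ELAVL4 lay higher and SYT1, given above, lower. TUBB3, the neuronal beta tubulin, was at 1228, 974 and 1549 TPM in the proprioceptor libraries, against 720.4, 1111 and 1007 TPM in the mechanoreceptor libraries, and the growth-associated STMN2 at 6269, 2989 and 5162 TPM in the proprioceptor libraries, against 3559, 4587 and 3089 TPM in the mechanoreceptor libraries.

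Genes of the integrated stress response, which ATF4 induces when translation is curbed, lay lower in most members. Of 16 tested genes of this and the unfolded protein response, 14 had a fold change below 0, beside 46.3% of all genes, with a median of -0.33. At an unadjusted p under 0.05, 2 were lower, beside 0.75% of all genes. DDIT4, an inhibitor of mTORC1 signalling, was at 27.6, 62.2 and 18.4 TPM in the proprioceptor libraries, against 132, 82.6 and 74.95 TPM in the mechanoreceptor libraries, without overlap, a log2 fold change of -1.10 ± 0.44. SESN2, another such inhibitor, was at 3.53, 18.4 and 8.28 TPM in the proprioceptor libraries, against 27.6, 21.8 and 17.3 TPM in the mechanoreceptor libraries. TRIB3, a pseudokinase induced by ATF4, was at 32.98, 33.96 and 28.5 TPM in the proprioceptor libraries, against 109.6, 75.03 and 43.7 TPM in the mechanoreceptor libraries, where mechanoreceptor replicate 1 was the highest. ATF4 itself was at 221, 197 and 141 TPM in the proprioceptor libraries, against 250.3, 263 and 188 TPM in the mechanoreceptor libraries, and its target ASNS (asparagine synthetase) at 215, 162 and 218 TPM in the proprioceptor libraries, against 434, 278 and 185 TPM in the mechanoreceptor libraries. VLDLR, a lipoprotein and reelin receptor, was at 11.9, 17.4 and 7.92 TPM in the proprioceptor libraries, against 30.6, 25.7 and 22.8 TPM in the mechanoreceptor libraries. Mitochondrial transcripts, a measure that can move with RNA quality, made up 7.34%, 5.03% and 5.18% of TPM in the proprioceptor libraries, against 2.23%, 5.21% and 6.53% in the mechanoreceptor libraries. Mechanoreceptor replicate 1, with the least, had the most DDIT4 and TRIB3, and the part of RNA quality in these values was not tested.

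**Figure D5:**
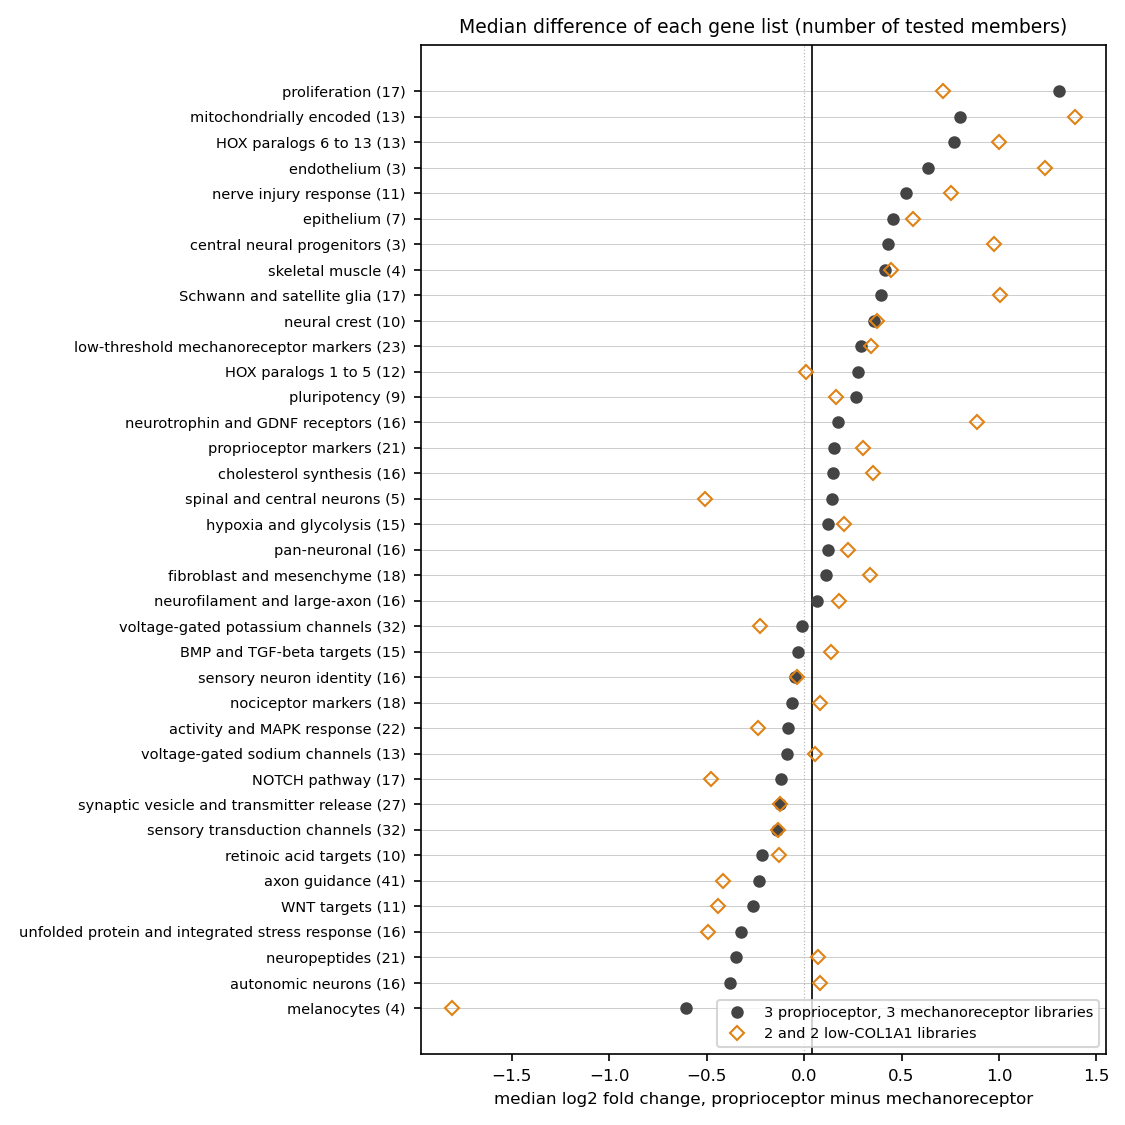
Median log2 fold change of each of 37 gene lists, proprioceptor minus mechanoreceptor protocol, with the number of tested members in brackets; filled circles are the 10-library fit, open diamonds the fit on the 4 low-COL1A1 libraries, and the solid line is the median of all genes, 0.04. Most medians lie within 0.5 of it, the stress response and axon guidance lists lie left of it in both fits (axon guidance lies right of it without mechanoreceptor replicate 3 or proprioceptor replicate 1), and the posterior HOX and mitochondrial lists lie right of it in both.

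Between the low-COL1A1 libraries, 2 against 2, edgeR again called 0 of 15468 genes (percent called 0.0), with a smallest adjusted p of 0.188. At an unadjusted p under 0.05 there were 346 genes higher (2.24%) and 268 lower (1.73%). DESeq2 on the same 4 libraries called 60 genes higher (0.388%) and 28 lower (0.181%). The common biological coefficient of variation was 0.437, and an exact permutation test over 2 against 2 libraries cannot go below 0.333. In both edgeR fits 156 genes had an unadjusted p under 0.05 with the same sign, but the 4 libraries are part of the 10, so this is no independent support.

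Part of the genes that DESeq2 called higher belonged to the RNA of the mesenchyme-rich libraries. Of the 60 higher genes, 25 had a mean TPM in proprioceptor replicate 2 and mechanoreceptor replicate 3 at least 5 times that in the 4 low-COL1A1 libraries, against 0 of the 28 lower genes and 4.69% of all genes tested. S100A4 was at 248, 2774 and 88.9 TPM in the proprioceptor libraries, against 23.4, 3.99 and 2074 TPM in the mechanoreceptor libraries, and S100A16 at 14.04, 268 and 5.69 TPM in the proprioceptor libraries, against 1.44, 1.15 and 195 TPM in the mechanoreceptor libraries. S100B, given above, had a log2 fold change of 3.97 ± 0.83 between the low-COL1A1 libraries (DESeq2 adjusted p = 1.12e-04, edgeR adjusted p = 0.458). In the 10-library fit its fold change was 0.47, and turned to -1.72 without proprioceptor replicate 2, -0.08 without mechanoreceptor replicate 1 and -0.11 without mechanoreceptor replicate 2. Between the low-COL1A1 libraries the glial list had 6 of 16 tested genes at an unadjusted edgeR p under 0.05, all higher, among them SOX10, S100B, CDH19, GFRA3 and FOXD3, beside 2.24% of all genes higher at that p. The part of glial cells in the other differences was not tested.

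Among the genes without overlap in either set of libraries, KLHL14 had a log2 fold change of 4.18 ± 0.59 between the low-COL1A1 libraries (DESeq2 adjusted p = 2.21e-10), TTC29 3.75 ± 0.58 (DESeq2 adjusted p = 9.08e-08) and TMSB15A 2.41 ± 0.50 (DESeq2 adjusted p = 0.00104). On the lower side, IAPP had -3.19 ± 0.74 (DESeq2 adjusted p = 0.00312), UNC5B -2.37 ± 0.51 (DESeq2 adjusted p = 0.00312) and NRP1 -2.24 ± 0.52 (DESeq2 adjusted p = 0.00614). In edgeR on these 4 libraries the adjusted p was 0.188 for KLHL14 and TTC29, 0.458 for TMSB15A and UNC5B, and 0.464 for IAPP and NRP1. These genes were picked for their lack of overlap on libraries that include the 4, so the p-values are no independent support. Of the genes that DESeq2 called, 11 of the 60 higher and 15 of the 28 lower also did not overlap in TPM over all 6 libraries, beside 0.868% of all genes higher and 5.02% lower. They were called on 4 of these 6 libraries, so the choice of genes largely set the lack of overlap among those 4 and nothing is read from these counts.

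IGFBP5, GRIK1, ARHGEF2, DLK1 and MASP1 separated the low-COL1A1 libraries but not all 6. IGFBP5, a binding protein of insulin-like growth factors, was at 3.62, 55.6 and 5.96 TPM in the proprioceptor libraries, against 33.97, 53.8 and 83.9 TPM in the mechanoreceptor libraries, with proprioceptor replicate 2 inside the range of the mechanoreceptor libraries. GRIK1 had the same shape, and ARHGEF2, a microtubule-bound exchange factor, was at 0.519, 6.499 and 0.947 TPM in the proprioceptor libraries, against 6.902, 4.01 and 4.202 TPM in the mechanoreceptor libraries. CNTN4, an axonal adhesion molecule, was at 3.44, 11.02 and 3.33 TPM in the proprioceptor libraries, against 34.2, 22.1 and 16.02 TPM in the mechanoreceptor libraries and did not overlap in either set. DLK1, an imprinted NOTCH-related ligand, was at 5.71, 30.3 and 102 TPM in the proprioceptor libraries, against 1.71, 4.37 and 27.2 TPM in the mechanoreceptor libraries, and MASP1, a complement protease, at 4.41, 0.981 and 10.4 TPM in the proprioceptor libraries, against 1.54, 1.39 and 0.3795 TPM in the mechanoreceptor libraries. KCNG1, a modifying potassium channel subunit, was at 0.192, 2.99 and 0.318 TPM in the proprioceptor libraries, against 3.35, 3.98 and 3.93 TPM in the mechanoreceptor libraries, and overlapped over all 6 on the TMM scale and not in TPM.

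The proprioceptor libraries differed widely among themselves. Replicate 1 held the highest SST and PVALB of the 6 libraries. Replicate 3 held the highest NTRK2, POU4F1, PIEZO2, TLX3 and ELAVL4 of its protocol, with TLX3, a homeobox factor of sensory neurons, at 4.14, 16.3 and 36.96 TPM. Replicate 3 also held the least BDNF, at 16.9, 37.05 and 0.805 TPM over the 3 replicates, the least TH and the least RUNX3. The low-COL1A1 comparison rests on replicates 1 and 3, which lie at opposite ends of the second principal component.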

How the data were processed

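Sensory neuron cultures of 3 protocols were profiled by bulk RNA-seq (10 libraries), with Clontech Ultra Low v4 cDNA and NexteraXT libraries per the labels' protocols. The submitters' processing notes name kallisto 0.50.1 and the build GRCh38.p14. What the authors deposited were estimated counts per gene and per transcript, already rounded to whole numbers, and TPM per gene and per transcript. How transcripts were summed to genes is not given in the sources used here. An entry with a blank name, 0.747% to 1.66% of the counts of the 6 libraries, was left out, which left 30357 genes. Of 207133 transcripts, 72.9% matched a named gene through GENCODE. Depth was 27891186 to 37920073 counts in the 6 libraries, so counting error matters for the lowest genes.

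Counts were tested with edgeR 4.0.16 (filterByExpr, TMM, glmQLFit and glmQLFTest, 1 mean per protocol, all 10 libraries) in R 4.3.3, two-sided, with Benjamini-Hochberg adjustment at 0.05. The 4 low-COL1A1 libraries were fitted alone. DESeq2 1.42.0 and limma 3.58.1 on log2(TPM + 1) were alternatives, beside no filter, 6 libraries alone, a replicate block, a mesenchyme covariate, a pseudocount of 0.1 and leaving out each library. All scripts for tests were checked on simulated data. Of transcripts listed at 0, a floor of 3 counts per library was used.

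The libraries and the 37 gene lists were chosen with earlier results of these data known. The text names 23 subtype genes, the 15 genes on each side with the smallest p among those without overlap and with a mean of at least 5 TPM, 10 on each side in the low-COL1A1 fit, 4 per list, and 5 transcripts on each side where a gene name matched. Genes named beyond these, such as DUSP6, FOS, EGR1, PLXNA4, EPHB2 and TH, were chosen from the lists after their values were seen. A few genes that these rules name are not reported here. Promoter windows and gene coordinates came from RefSeq tables of GRCh38.p14.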

Additional observations from a re-analysis of the deposited data

How the results depend on the processing

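The count of genes past the adjusted threshold was 0 in the 10-library edgeR fit and in all its alternatives but 1, limma on log2(TPM + 1) without a filter, with 3 genes lower (BOLA2P1, PHF5AP7 and TRAV5). Between the low-COL1A1 libraries it was 0 in edgeR, 88 in DESeq2 and 177 in edgeR without a filter, and 0 in limma, with the nociceptor libraries added, and on leaving out any of the 4 libraries. For transcripts it was 0 in edgeR and limma and 339 in DESeq2. At an unadjusted p under 0.05 the gene count ran from 117 (without mechanoreceptor replicate 1) to 738 (without proprioceptor replicate 2). The counts of genes without overlap in TPM were 140 higher (0.868%) and 810 lower (5.02%) over all 6 libraries. In the low-COL1A1 libraries they were 783 higher and 4555 lower. On the TMM scale over 6 libraries they were 372 higher (2.31%) and 544 lower (3.37%). On leaving out 1 library each the counts in TPM ran from 303 to 1467 higher and from 1089 to 3185 lower. A gene without overlap over all 6 libraries stays so on leaving out 1, so these counts cannot fall. Why more genes lay lower than higher was not tested. These counts were added after seeing the data.

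Deviations from the protocol mean correlated at 0.188, -0.633 and -0.470 between same-numbered libraries. The highest correlation, 0.792, lay between the mesenchyme-rich proprioceptor replicate 2 and mechanoreceptor replicate 3. Mesenchyme content thus entered these values, and they cannot tell whether same-numbered libraries were paired. The replicate block gave 0 calls for genes and for transcripts, with 130 genes at an unadjusted p under 0.05. Of the 30 genes named for not overlapping, 0 took another sign of fold change under any alternative. Their choice on these same libraries largely set this, so nothing is read from it. Of the 23 subtype genes, 17 took another sign under at least 1 alternative. Among them were AVIL, CALB1, ISL1, NTRK3 and PVALB on the log2(TPM + 1) scale. The fold changes printed for the 17 are thus values with no direction read from them over the 6 libraries. Of the 37 lists, 30 had a median that took another sign under at least 1 of 16 alternatives. The other 7 were the mechanoreceptor markers, HOX paralogs 6 to 13, skeletal muscle, melanocytes, the stress response, synaptic vesicles and the mitochondrially encoded genes. The cause of these differences between settings was not tested, and neither was the part of depth.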

Other observations

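All 13 mitochondrially encoded genes had a fold change above 0, with a median of 0.80 in the 10-library fit and 1.39 between the low-COL1A1 libraries. MT-CO2, a subunit of cytochrome c oxidase, was at 14407, 10350.0 and 10709 TPM in the proprioceptor libraries, against 3418, 10091 and 11990.0 TPM in the mechanoreceptor libraries, so mechanoreceptor replicate 1 lay apart from the other 5. Of 17 proliferation genes, 16 had a fold change above 0, with a median of 1.31, and proprioceptor replicate 2 was the highest library for TOP2A, a topoisomerase of dividing cells, at 0.199, 5.41 and 1.23 TPM in the proprioceptor libraries, against 0.547, 0.178 and 1.05 TPM in the mechanoreceptor libraries. UBE2C, which drives mitotic exit, was at 1.86, 17.1 and 0.789 TPM in the proprioceptor libraries, against 1.47, 0.553 and 3.06 TPM in the mechanoreceptor libraries. Levels of both were lower in the other 5 libraries. Over the whole list the mean log2 CPM was 1.57, 3.53 and 1.35 in the proprioceptor libraries, against 1.01, 0.32 and 2.27 in the mechanoreceptor libraries. The mesenchyme-rich mechanoreceptor replicate 3 was thus the next highest.

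Of 11 genes of the nerve injury response, 7 had a fold change above 0, with a median of 0.52. TUBB6, a beta tubulin, lay higher without overlap, at 104, 114 and 139 TPM in the proprioceptor libraries, against 50.5, 89.9 and 91.9 TPM in the mechanoreceptor libraries, while GAP43, a growth cone protein, overlapped, at 1968, 1243 and 1573 TPM in the proprioceptor libraries, against 1357, 1749.6 and 1277 TPM in the mechanoreceptor libraries. Of 16 genes of cholesterol synthesis, 10 had a fold change above 0, with a median of 0.15, and FDPS, which makes farnesyl diphosphate, was at 1075, 473 and 711 TPM in the proprioceptor libraries, against 395, 641 and 526 TPM in the mechanoreceptor libraries. CRABP2, which carries retinoic acid, was at 1.09, 3.28 and 1.91 TPM in the proprioceptor libraries, against 11.5, 3.58 and 3.46 TPM in the mechanoreceptor libraries. PMEL, a melanosome protein, was at 1.15, 6.44 and 0.986 TPM in the proprioceptor libraries, against 25.7, 3.62 and 10.3 TPM in the mechanoreceptor libraries, while the melanocyte enzyme gene TYR stayed under 1 TPM in all 6 libraries. The epithelial keratin KRT8 lay lower without overlap, at 5.77, 8.07 and 5.81 TPM in the proprioceptor libraries, against 14.2, 15.8 and 13.4 TPM in the mechanoreceptor libraries, and CDH1, the epithelial cadherin, higher, at 0.222, 0.692 and 0.297 TPM in the proprioceptor libraries, against 0.138, 0.0837 and 0.112 TPM in the mechanoreceptor libraries, under 1 TPM throughout.

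The medians of the other lists were 0.39 for glia (14 of 17 genes above 0), 0.36 for neural crest (7 of 10), 0.18 for neurotrophin and GDNF receptors (12 of 16), 0.11 for mesenchyme (12 of 18), 0.46 for epithelium (5 of 7) and 0.27 for pluripotency (7 of 9). They were -0.35 for neuropeptides (6 of 21 above 0), -0.38 for autonomic neurons (5 of 16), -0.27 for WNT targets (4 of 11), -0.12 for the NOTCH pathway (8 of 17), -0.22 for retinoic acid targets (4 of 10), -0.03 for BMP and TGF-beta targets (7 of 15) and -0.09 for sodium channels (6 of 13). No member of any list passed the adjusted threshold in the 10-library edgeR fit.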
